A study of Mus musculus with 16 samples.

Results

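The genes described here are those carried by the mitochondrial DNA of the mouse, chosen as every gene of the deposited table whose name starts with mt-. They were 35 of the 23299 genes in the table: 13 protein-coding genes, 2 rRNA genes and 20 tRNA genes. RNA was sequenced from the terminal ileum of C57BL/6 mice that were wild type (Tas1r3+/+, WT) or carried a deletion of Tas1r3, a subunit of the sweet and umami taste receptors, in every cell (Tas1r3-/-, KO). The mice were 5 to 6 weeks old at the start, and were fed for 10 weeks either a normal diet with plain water (ND) or a Western diet (WD), which combined a 60% high-fat pellet with a 30% sucrose solution to drink. The labels give 16 samples, 4 in each of WT-ND, KO-ND, WT-WD and KO-WD, with 2 males and 2 females per group.

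Mitochondrial DNA is a small circle that is transcribed from both of its strands into long precursors. The tRNAs lie between most of the other genes, and their excision frees the mRNAs and rRNAs, which are then polyadenylated. The 13 proteins are all subunits of the respiratory chain or the ATP synthase, and every other subunit is encoded in the nucleus. The rRNAs and tRNAs serve the mitochondrion's own ribosomes. In the ileum, absorptive cells and the muscle layer depend on this respiration for transport and contraction.

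The 2 female columns of KO-ND were left out, because in both the values of all 35 genes equal weighted means of the 2 male columns. In the female 2 column of KO-WD, only 19 of the 35 values had 6 or fewer significant digits, as against 35 of 35 in female 1, and the double of female 2 minus female 1 had 6 or fewer for 35 of 35. The KO-WD females therefore entered as 1 library, their mean, so 13 libraries were used: 4 of WT-ND, 2 of KO-ND, 4 of WT-WD and 3 of KO-WD. KO-ND then held males only, while the other groups held both sexes. WD against ND in KO and KO against WT on ND may therefore also hold a difference between the sexes. The tables hold RPKM, reads scaled to the length of the transcript and to a total for each library. In these units the ND columns summed to 817011 to 819916 and the WD columns used to between 542371 and 685274, so values were either taken as a share within a library or scaled between libraries by a trimmed mean of log ratios (scaled RPKM). Whether ND and WD columns were also processed differently cannot be told apart from the diet. The step between low values put the depth at 7003819 to 12384382 reads per library. These depths are estimates: RPKM times length came to 66.4% to 77.2% of the total that the unit allows in the WD libraries, to 82.9% to 99.2% in 4 ND libraries, and to 107% and 109% in WT-ND females 2 and 1, which is more than it allows, so the library total behind the values is not known. Tas1r3 lay between 1.56 and 6.53 scaled RPKM in the WT libraries and between 6.83e-04 and 0.00512 in the KO libraries, and the ileal marker Fabp6, a bile acid carrier, was present in all 13 (714 to 8967).

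The annotation places the mitochondrial genes end to end, and 4 features of their sequences bear on what the values can resolve. The first is overlap. The end of mt-Atp8 (chrM:7766-7969, GRCm38, + strand) and the start of mt-Atp6 (chrM:7927-8607, + strand), both subunits of the ATP synthase, share 43 bases, shown in capitals in these stretches of 60 bases from GENCODE M21.
mt-Atp8, last bases: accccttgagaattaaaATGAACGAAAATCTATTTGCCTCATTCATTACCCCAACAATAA
mt-Atp6, first bases: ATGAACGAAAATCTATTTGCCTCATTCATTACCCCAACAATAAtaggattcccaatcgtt

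The complex I genes mt-Nd4l (chrM:9877-10173) and mt-Nd4 (chrM:10167-11544) share 7 bases on the same strand, and mt-Nd5 and mt-Nd6 share 14 on opposite strands. How the counting treated shared bases or strand was not given in the sources used here, so reads in these overlaps cannot be assigned to 1 gene.

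The second feature is the 3′ end. Of the 13 protein-coding genes, 10 end in a full stop codon and 3 end in a single T, which polyadenylation completes to TAA. These 24-base ends, with the stop or its part in capitals, are from the 3 genes with a single T and from mt-Co1 for comparison.
mt-Co3: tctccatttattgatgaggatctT
mt-Nd4: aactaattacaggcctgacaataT
mt-Cytb: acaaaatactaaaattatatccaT
mt-Co1: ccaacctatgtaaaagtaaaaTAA

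The third feature is the nuclear copies. A run of mitochondrial sequence lies on chromosome 1 (chr1:24611535-24616197, GRCm38, - strand) and is annotated as 7 unprocessed pseudogenes. Of these, 5 match their mitochondrial gene at every base, as in the first 60 bases of mt-Co2 and Gm28661.
mt-Co2: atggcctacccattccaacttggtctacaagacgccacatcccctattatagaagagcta
Gm28661: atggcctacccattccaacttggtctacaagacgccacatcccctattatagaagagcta

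The copy Gm28438 differs from mt-Nd3 at 1 of 345 bases (T3C, counted from the first base of mt-Nd3), and Gm29216 differs from the mt-Co1 stretch it copies at 6 of 492 bases, all of them at its first bases (capitals).
mt-Nd3: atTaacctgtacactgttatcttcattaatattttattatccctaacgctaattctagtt
Gm28438: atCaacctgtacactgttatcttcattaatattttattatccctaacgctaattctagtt
mt-Co1: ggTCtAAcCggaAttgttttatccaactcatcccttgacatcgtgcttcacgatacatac
Gm29216: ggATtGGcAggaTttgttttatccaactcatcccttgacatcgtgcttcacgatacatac

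The copies were listed at levels close to those of their mitochondrial genes. The ratio of the copy's RPKM to that of its gene lay between 0.987 and 1.01 for mt-Co3, between 0.991 and 1.01 for mt-Co2, between 0.961 and 1 for mt-Atp6 and between 0.904 and 1.01 for mt-Nd4l in all 13 libraries. It was lower for mt-Co1 (0.635 to 0.772) and mt-Nd4 (0.319 to 0.555), whose copies cover part of the gene. For mt-Nd3 the ratio was 0.825 to 0.873 in WT-ND and 0.592 to 0.786 in WT-WD, and 0.841 to 0.906 in KO-ND and 0.703 to 0.818 in KO-WD, with no overlap between the diets in either genotype. This is 1 of 7 such ratios, and the difference was not tested. Levels of single genes separated downwards in 6.44% of all genes in WT and 10.9% in KO, but ratios were not taken over other gene pairs. Where a read lies in identical sequence, gene and copy cannot be told apart, so the levels of these 7 genes are given as listed and, where it matters, with the copy added. Every other nuclear copy was listed at no more than 0.126 of its mitochondrial gene.

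**Figure D1:**
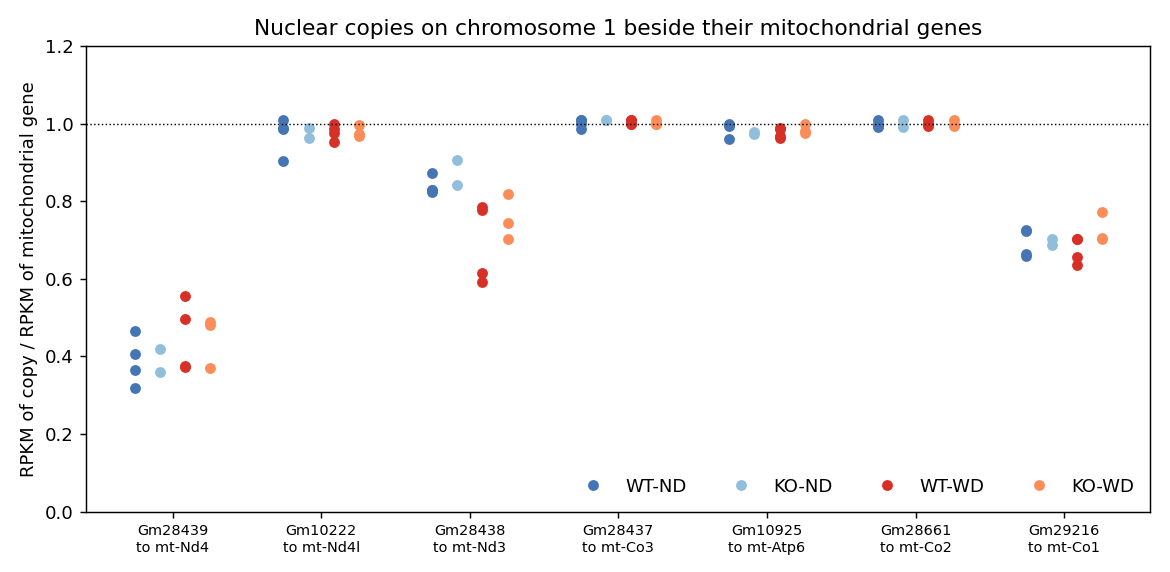
Ratio of the RPKM of each of the 7 nuclear copies on chromosome 1 to the RPKM of its mitochondrial gene; each point is 1 library, coloured by group, and the dotted line marks 1. The copies of mt-Co3, mt-Co2, mt-Atp6 and mt-Nd4l sit at 0.904 to 1.01, and the copy of mt-Nd3 is at 0.825 to 0.873 in WT-ND and at 0.592 to 0.786 in WT-WD, a difference that was not tested.

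The fourth feature is tRNAs that face a gene on the other strand. mt-Ts1 (chrM:6870-6938, - strand), a serine tRNA, overlaps the last 3 bases of mt-Co1 (+ strand), and mt-Tq (chrM:3772-3842, - strand), the glutamine tRNA, overlaps mt-Ti. They are shown whole, with the overlapping bases in capitals, beside mt-Tm (chrM:3845-3913, + strand), the methionine tRNA, because these 3 tRNAs had the highest means over the 13 libraries.
mt-Ts1: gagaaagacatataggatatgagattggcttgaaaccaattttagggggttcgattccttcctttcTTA
mt-Tq: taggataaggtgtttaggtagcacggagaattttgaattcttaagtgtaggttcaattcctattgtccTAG
mt-Tm: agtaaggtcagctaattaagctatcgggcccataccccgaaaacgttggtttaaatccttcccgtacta

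Mitochondrially encoded genes made up a larger share of the ileal libraries of WD-fed mice than of ND-fed mice in both genotypes. In WT-ND they took 4.38% and 4.23% of the summed RPKM in males 1 and 2, and 3.35% and 5.58% in females 1 and 2. In WT-WD the same shares were 8.19%, 7.37%, 10.7% and 9.62%. The 2 groups did not overlap, with means of 4.38% ± 0.916 and 8.98% ± 1.5 (SD, n = 4 each), a 2.05-fold difference. The two-sided exact permutation test gave p = 0.0286, the smallest that 4 against 4 libraries allow, and p = 0.114 when adjusted over the 4 comparisons.

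In KO-ND the share was 3.83% in both male libraries, and in KO-WD it was 6.37% and 7.65% in males 1 and 2 and 7.43% in the averaged females. These groups did not overlap either (3.83% ± 0.0041, n = 2, and 7.15% ± 0.686, n = 3, a 1.87-fold difference). The exact permutation p was 0.1, the smallest that 3 against 2 allow. Among males alone the mean share was 4.3% in WT-ND and 7.78% in WT-WD, and 3.83% in KO-ND and 7.01% in KO-WD, with 2 libraries each. Between the genotypes the shares overlapped on both diets: KO was 0.552 percentage points below WT on the ND (exact permutation p = 0.533) and 1.83 points below on the WD (p = 0.2). Counted in reads in place of RPKM, which weights long genes more, the share was 3.21% ± 0.683 in WT-ND and 6.77% ± 1.63 in WT-WD (n = 4 each), and 3.22% ± 0.298 in KO-ND (n = 2) and 5.89% ± 0.384 in KO-WD (n = 3).

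**Figure D2:**
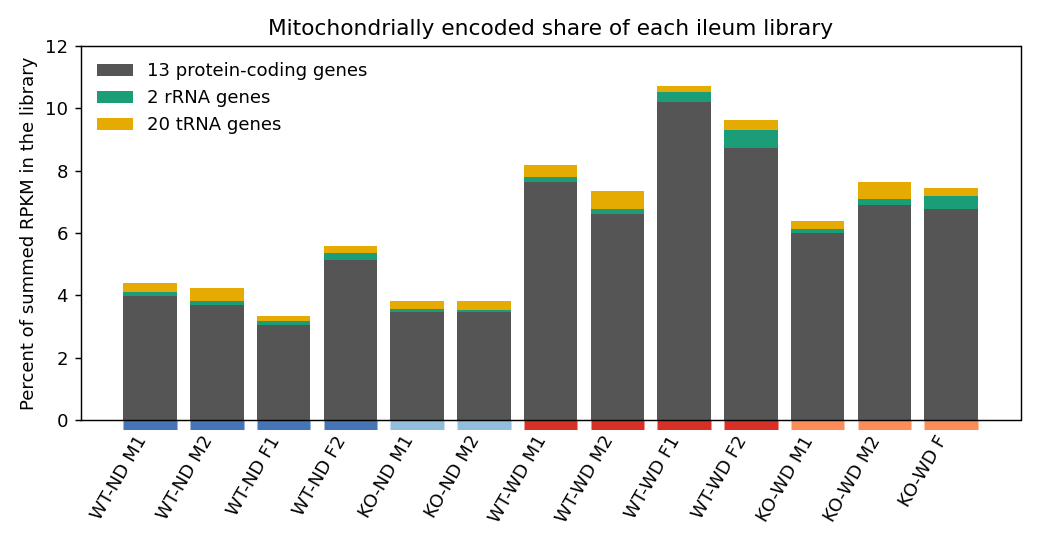
Percent of the summed RPKM of each library that came from mitochondrially encoded genes, stacked by class, for 13 libraries named by group, sex (M or F) and number; coloured strips under the bars mark the groups. The 6 ND bars reach 3.35% to 5.58% and the 7 WD bars 6.37% to 10.7%, nearly all of it from the 13 protein-coding genes.

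Most of this share came from the protein-coding genes. They took 3.96% ± 0.868 of WT-ND and 8.3% ± 1.56 of WT-WD libraries (n = 4 each, exact permutation p = 0.0286), and 3.47% ± 0.0199 of KO-ND (n = 2) and 6.57% ± 0.485 of KO-WD (n = 3, exact permutation p = 0.1). The rRNA genes took 0.151% ± 0.0522 and 0.308% ± 0.193 in WT-ND and WT-WD (n = 4 each), which overlapped (exact permutation p = 0.143). The tRNA genes took 0.269% ± 0.0991 and 0.371% ± 0.177, which overlapped as well (n = 4 each, exact permutation p = 0.371). Between the genotypes on the ND, the rRNA shares of KO, 0.0901% ± 0.00866 (n = 2), all lay below those of WT (exact permutation p = 0.2). The KO libraries here were males only, and the WT-ND males were at 0.105% and 0.152%. In bulk tissue, a change in the mitochondrial RNA per cell and a change in the kinds of cells sampled cannot be told apart.

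Gene by gene, all 35 members passed the filter of 1 RPKM in at least 2 libraries and were tested with the other genes, 19042 in all. No member was called in WD against ND in either genotype, in KO against WT on either diet, or in the interaction of diet and genotype, where a call by limma needed an adjusted p (Benjamini-Hochberg) below 0.01 together with a 2-fold difference. Few genes of any kind were called: 0.00525% of those tested for WD against ND in WT, 0% in KO, 0% for KO against WT on ND, 0.0105% on WD and 0% for the interaction. At an adjusted p under 0.05 with no minimum fold, again no member was called, against 0.042%, 0.00525%, 0.00525%, 0.0263% and 0% of all genes in the same order. The smallest adjusted p of a member was 0.0691, for mt-Nd3 in WT. This count of 0 at 0.05 did not hold under 5 of 30 alternative fits for WD against ND in WT. The adjusted p of mt-Nd3 was 0.0328 with sex as a covariate and 0.0398 with upper quartile scaling. It was then the only member under 0.05, where 126 and 27 of the 19042 genes passed. On the values as deposited it was 0.0101, with 4 of 35 members and 3441 of 19042 genes under 0.05. Without WT-WD female 2 and the KO-WD females it was 0.027, with 2 of 35 members and 1069 of 18998 genes. In these 2 fits members passed about as often as all genes or less often. With the 16 columns as labelled it was 0.00817, with 6 of 35 members and 554 of 19083 genes. All members that passed are complex I genes. In KO, 2 members and 305 genes passed with the 16 columns, and 0 members in the other fits. The 16 columns count the KO-ND female columns, weighted means of the males, as libraries. Before adjustment, the protein-coding genes stood above the background. For WD against ND in WT, 12 of the 13 protein-coding genes had p under 0.05 and a higher level on WD, against 6.77% of all genes tested, and in 10 of 13 the 4 WD libraries all lay above the 4 ND libraries, against 4.14% of all genes. For WD against ND in KO, 8 of 13 had p under 0.05 and a higher level, against 2.38%, and in 13 of 13 the groups did not overlap, against 9.83%. These counts leaned on single libraries and on the scale. With males alone the WT count was 6 of 13. The KO count was 0 without KO-ND male 2, 5 without KO-ND male 1, 4 without KO-WD male 2 and 3 without the KO-WD females. On the values as deposited, where the median of all genes differed by -0.38 in WT and -0.35 in KO, the log2 fold changes of the 13 genes were 0.39 to 1.01 and 0.41 to 0.78, all above that median, and the groups did not overlap in 5 of 13 genes in WT, against 0.478% of all genes, and in 13 of 13 in KO, against 1.8%. The 13 genes share their precursor transcripts and are not independent of each other.

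The 7 complex I genes, which encode membrane subunits of NADH dehydrogenase, had the largest median difference of the 4 complexes, 1.18 on the log2 scale in WT and 0.99 in KO. mt-Nd3 (chrM:9459-9806) stood at 328, 315, 240.1 and 366 scaled RPKM in WT-ND and at 668, 568, 1137 and 1215 in WT-WD (males 1 and 2, then females 1 and 2). It was 333 and 406 in KO-ND and 700.4, 855 and 818 in KO-WD. Every WD library was above every ND library, and the 2 WT-WD females were above both WT-WD males. The log2 fold change was 1.46 ± 0.27 (SE) in WT, with an unadjusted limma p of 1.40e-04 and an adjusted p of 0.0691, and 1.10 ± 0.35 in KO (adjusted p = 0.819). With the values of its chromosome 1 copy added, the log2 fold changes were 1.34 ± 0.27 and 1.01 ± 0.35.

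mt-Nd4 (chrM:10167-11544), one of the proton-pumping subunits, stood at 1660.4, 1328, 1041 and 2093 scaled RPKM in WT-ND and at 3108, 2205, 4588 and 4932 in WT-WD. In KO it was 1784 and 1172 on ND and 2895, 3089 and 3703 on WD. The groups did not overlap in either genotype, though in WT the highest ND library and the lowest WD library were close. Its log2 fold changes were 1.25 ± 0.35 and 1.15 ± 0.45, with limma adjusted p-values of 0.139 and 0.877. mt-Nd2 differed by 1.23 ± 0.30 in WT and 0.99 ± 0.38 in KO, mt-Nd5 by 1.18 ± 0.30 and 0.97 ± 0.38, and mt-Nd4l by 1.08 ± 0.25 and 1.02 ± 0.32. For mt-Nd1 the values were 1.06 ± 0.32 and 0.87 ± 0.42. The diets did not overlap for any of these in either genotype.

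mt-Nd6 (chrM:13552-14070), the only protein-coding gene annotated on the opposite strand, lay as listed in the range of the other 12. The treatment of strand was not given, so its reads cannot be told apart from reads of RNA from the other strand there. mt-Nd6 was 1274, 972, 841 and 1548 scaled RPKM in WT-ND and 1831, 1640, 2664 and 3277 in WT-WD, without overlap (log2 fold change 1.01 ± 0.31, limma adjusted p = 0.168). In KO it was 1211 and 1012 on ND and 1717, 2117 and 2468 on WD (0.91 ± 0.40, adjusted p = 0.881). Relative to the sum of the other protein-coding genes, mt-Nd6 made up 4.54% ± 0.454 in WT-ND, 4.42% ± 0.291 in KO-ND, 4.5% ± 0.212 in WT-WD and 4.37% ± 0.105 in KO-WD (n = 4, 2, 4 and 3). The log2 ratio differed by -0.01 between the diets in WT and by -0.02 in KO, less than the SD between libraries (0.15 in WT-ND and 0.09 in KO-ND).

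In complex III, mt-Cytb (chrM:14145-15288) encodes cytochrome b. It was 3218, 2699, 2370 and 3956 scaled RPKM in WT-ND and 5059, 3934, 8013 and 8682 in WT-WD. Here the lowest WD library, male 2, lay just below the highest ND library, female 2. The log2 fold change was 1.02 ± 0.36 in WT (limma adjusted p = 0.215) and 0.95 ± 0.47 in KO (adjusted p = 0.887).

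The 3 complex IV genes, which encode the catalytic core of cytochrome c oxidase, had the smallest median difference, 0.92 in WT and 0.83 in KO. mt-Co1 (chrM:5328-6872) was the most abundant member as listed. It stood at 5096, 5259, 3554 and 6547 scaled RPKM in WT-ND and at 7203, 5699, 10326 and 14885 in WT-WD, and at 5039.5 and 3679 in KO-ND and 6087, 6894 and 10617 in KO-WD. The WT groups overlapped, since WT-WD male 2 was below WT-ND female 2. Its log2 fold change was 0.83 ± 0.41 in WT, the only one of the 13 with an unadjusted limma p above 0.05 (0.0644, adjusted p = 0.349), and 0.83 ± 0.53 in KO. mt-Co2 differed by 0.92 ± 0.39 and 0.79 ± 0.51, with overlapping WT groups. mt-Co3 differed by 1.11 ± 0.36 and 1.05 ± 0.46, without overlap.

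The ATP synthase genes of complex V lay between. mt-Atp6 differed by 0.93 ± 0.34 in WT and 0.86 ± 0.43 in KO, and mt-Atp8 by 1.00 ± 0.33 and 1.01 ± 0.42, and neither gene's diet groups overlapped. mt-Atp8 stood at 2177, 2009.8, 1114 and 2160 scaled RPKM in WT-ND and at 2886, 2778, 4728 and 4505 in WT-WD.

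**Figure D3:**
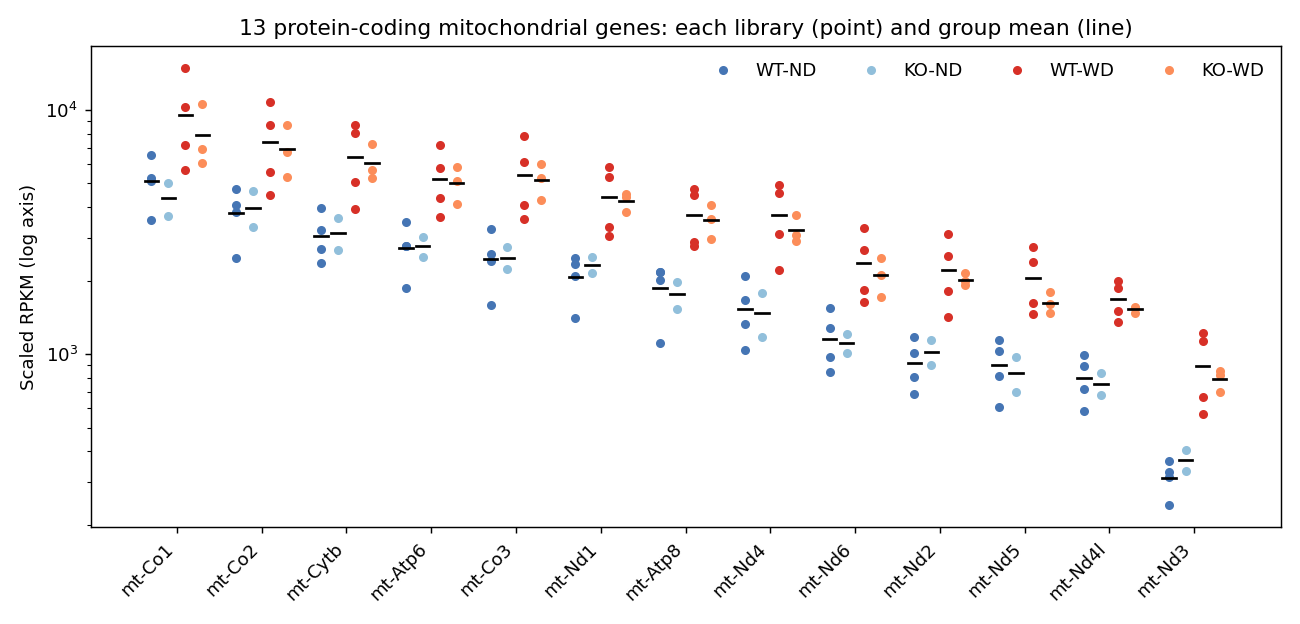
Scaled RPKM (log axis) of the 13 protein-coding mitochondrial genes in each library (points, coloured by group) with the group means (black lines), ordered by the WT-ND mean. For all 13 genes both WD means lie above both ND means; mt-Co1 leads as listed (5114 in WT-ND and 9528 in WT-WD) and mt-Nd3 is lowest (312 and 897).

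Between genotypes, the protein-coding genes lay close together. On the ND their log2 fold changes of KO against WT ran from -0.21 to 0.25 (7 higher, 6 lower), and on the WD from -0.30 to 0.01 (1 higher, 12 lower). In 0 of 13 on either diet did the KO and WT libraries separate, where 22.3% of all genes tested separated in 1 direction or the other on the ND, with 2 KO libraries, and 2.85% on the WD. The diet difference in KO minus that in WT ran from -0.36 to 0.01 over the 13 genes, with limma p-values between 0.43 and 0.993 before adjustment.

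**Figure D4:**
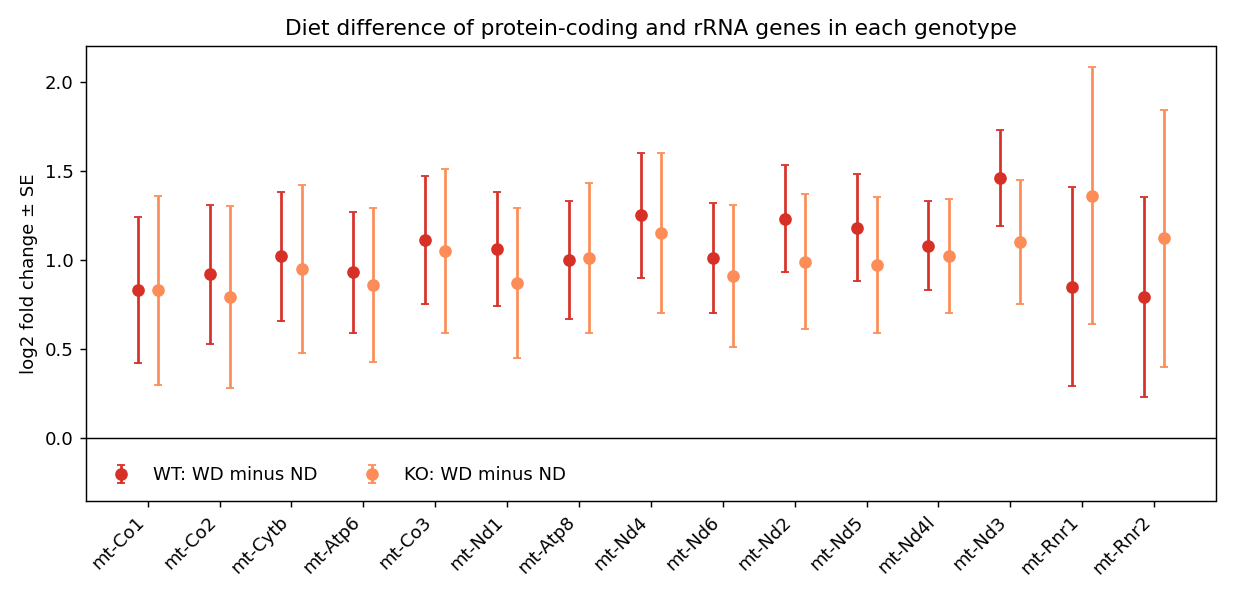
Log2 fold change of WD against ND (points) with its standard error (bars) for the 13 protein-coding and 2 rRNA genes, in WT and in KO. All 30 points are above 0, the protein-coding genes at 0.79 to 1.46, and the error bars of the 2 genotypes overlap for each gene.

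The order of the protein-coding genes by level per length was nearly the same in the 4 groups as listed: mt-Co1, mt-Co2 and mt-Cytb led, then mt-Atp6 and mt-Co3, mt-Nd1, mt-Atp8, mt-Nd4, mt-Nd6, mt-Nd2, mt-Nd5, mt-Nd4l and mt-Nd3, with mt-Atp6 and mt-Co3 changing places on the WD. In WT-ND the means were 5114 ± 1226 for mt-Co1, 3785 ± 945 for mt-Co2 and 3061 ± 692 for mt-Cytb (SD, n = 4), and the libraries of these neighbours overlapped. mt-Nd6 (1159 ± 317), mt-Nd2 (919 ± 219), mt-Nd5 (899 ± 238) and mt-Nd4l (799.5 ± 182) overlapped, and mt-Nd3 (312 ± 52.8) was below every other gene in all 13 libraries. The lead depended on the nuclear copies. With the copies added, mt-Co2 was first in all 4 groups (7544 ± 1886 in WT-ND) and mt-Cytb came after mt-Co1, mt-Atp6 and mt-Co3 as well.

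Within the protein-coding sum, complex I made up 28.8% ± 1.39 in WT-ND and 31.7% ± 1.51 in WT-WD (SD, n = 4 each), and complex IV 42.5% ± 1.58 and 40.1% ± 2.54. Neither difference passed the exact permutation test (p = 0.0571 and 0.171, and p = 1 for both when adjusted over the 24 ratios compared). Both turned on the library WT-WD female 2, in which complex I stood at 29.5% and complex IV at 43.9%, while in the other 3 WT-WD libraries complex I was 32.2% to 32.7% and complex IV 38.4% to 39.2%. Without it the log2 ratios differed by 0.17 and -0.13, each with an exact permutation p of 0.0286, the smallest that 3 against 4 libraries allow. This p is not adjusted. The library set aside is the 1 that went against the difference, so the test adds no support for it. In KO complex I was 30% ± 0.559 on ND (n = 2) and 31.3% ± 2.58 on WD (n = 3). Complex III, at group means of 11.6% to 12.1%, and complex V, at 16.6% to 17.2%, differed between the diets by at most 0.05 in log2 ratio.

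The rRNAs varied more within groups than the protein-coding genes. mt-Rnr1 (chrM:70-1024) and mt-Rnr2 (chrM:1094-2675) encode the RNAs of the small and the large subunit of the mitochondrial ribosome. The library preparation selected polyadenylated RNA and then depleted the nuclear-encoded rRNAs, so their values are those of molecules that passed this selection. mt-Rnr1 stood at 345, 548, 360.1 and 720.4 scaled RPKM in WT-ND and at 475, 427, 1014 and 2543 in WT-WD, and at 411 and 292 in KO-ND and 486, 753 and 1924 in KO-WD. mt-Rnr2 stood at 399, 533, 384 and 761, at 531, 397, 1066 and 2474, at 415 and 264, and at 397, 595 and 1565 in the same order. The WT-WD males lay within the ND range, and the high values were those of the WD-fed females, with WT-WD female 2 and the averaged KO-WD females on top. The log2 fold changes of WD against ND were 0.85 ± 0.56 and 0.79 ± 0.56 in WT (limma adjusted p = 0.481 and 0.513) and 1.36 ± 0.72 and 1.12 ± 0.72 in KO (0.917 and 0.944). KO-ND held no females, so the KO values may also hold a difference between the sexes, which was not tested.

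The rRNAs summed to 2.3% to 6.57% of the protein-coding sum in WT-WD and to 2.63% to 4.37% in WT-ND, and to 2.1% to 5.95% in KO-WD and 2.43% to 2.76% in KO-ND. The 2 libraries at 6.57% and 5.95% are WT-WD female 2 and the KO-WD females. The log2 ratio of rRNA to protein-coding genes differed by -0.19 between the diets in WT (exact permutation p = 0.686) and by 0.32 in KO (p = 0.9), and without the KO-WD females the KO value was -0.12. The 2 rRNAs stayed close to each other, with mt-Rnr2 at 79% to 115% of mt-Rnr1 over the 13 libraries. This ratio was 79% to 81.7% in KO-WD and 92.9% to 112% in WT-WD. On the ND it overlapped, at 90.5% to 101% in KO and 97.2% to 115% in WT. It was not tested. Levels of single genes separated between the genotypes on the WD in 2.85% of all genes. Ratios were not taken over other gene pairs, so that share is no background for this ratio.

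The tRNA genes rested on few reads. All 20 together had 733 to 3468 reads per library, as against 208146 to 702761 for the protein-coding genes and 6818 to 59450 for the rRNAs. Reads here are those implied by the step, and for KO-WD females those of female 1. mt-Ts1 alone had 303 to 2538 reads, mt-Tq 30 to 468, mt-Tm 15 to 333 and mt-Tp, the proline tRNA, 42 to 152. mt-Tg, mt-Th, mt-Tk, mt-Tl2, mt-Tr and mt-Tw had 0 reads in at least 1 library. The tRNAs mt-Tf and mt-Td, annotated on the mitochondrial chromosome, were not analysed here.

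mt-Ts1 had the highest level as listed of the tRNAs in every library. The treatment of strand was not given. Reads of mt-Ts1, or of any other tRNA, and reads of RNA from the opposite strand there therefore cannot be told apart. mt-Ts1 stood at 1244, 1869, 671 and 999 scaled RPKM in WT-ND, at 1419.7 and 1269.5 in KO-ND, at 1448, 2592, 455 and 1265 in WT-WD, and at 1134, 2971 and 1271 in KO-WD. These values overlapped in every comparison (log2 fold change of WD against ND 0.12 ± 0.51 in WT and 0.27 ± 0.66 in KO). Relative to mt-Co1, which it faces, mt-Ts1 ranged from 4.41% in WT-WD female 1 to 45.5% in WT-WD male 2. mt-Tq stood at 187, 279, 74.3 and 63.1 in WT-ND and at 354, 272, 143 and 70.6 in WT-WD, with the females below the males on both diets, and at 254, 532 and 54 in KO-WD, again lowest in the females.

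mt-Tm was high in the same WD libraries as the rRNAs. It stood at 123, 239.5, 80.9 and 104 in WT-ND, at 93 and 44.4 in KO-ND, at 40.1, 36, 131 and 515 in WT-WD, and at 23.3, 48 and 274 in KO-WD, so its highest values were those of WT-WD female 2 and the KO-WD females. The 12 tRNAs on the + strand, the strand of the rRNAs, summed to 1.34% of the protein-coding sum in WT-WD female 2 and 0.888% in the KO-WD females, and to 0.197% to 0.435% in the other 5 WD libraries and 0.545% to 1.44% in the ND libraries. The 8 tRNAs on the - strand summed to 2.31% and 2.74% in those 2 libraries and to 1.27% to 8.65% in the other 5. These levels were described without a test, and the part of sex in them was not tested.

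**Figure D5:**
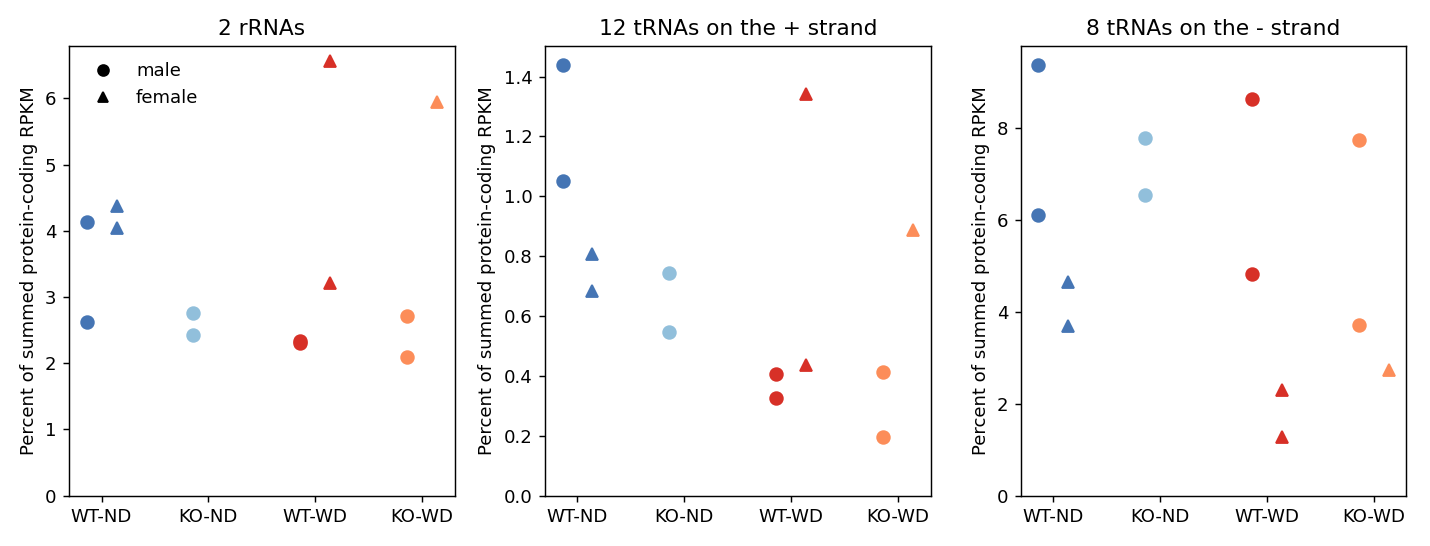
Summed RPKM of the 2 rRNAs, of the 12 + strand tRNAs and of the 8 - strand tRNAs as a percent of the summed protein-coding mitochondrial RPKM, in each library (circles for males, triangles for females, coloured by group). On the WD, the highest rRNA and + strand tRNA values are those of 1 WT female (6.57% and 1.34%) and of the averaged KO females (5.95% and 0.888%), where the - strand tRNAs are at 2.31% and 2.74%.

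Few other tRNAs separated the groups. mt-Tl1, a leucine tRNA next to mt-Rnr2, averaged 36.1 ± 11.8 scaled RPKM in WT-ND and 79.5 ± 46.3 in WT-WD (SD, n = 4), and its libraries overlapped. The log2 fold change was 1.04 ± 0.35 (limma adjusted p = 0.202, and 0.0123 unadjusted). mt-Tt, the threonine tRNA, rested on 1 to 11 reads. It averaged 2.06 ± 0.752 in KO-ND and 7.21 ± 5.33 in KO-WD without overlap, and 5.11 ± 1.67 in WT-ND, above both KO-ND libraries. Its interaction of diet and genotype, 1.97 ± 0.68, had the smallest p among the members (0.0128, adjusted p = 1 by limma). On 0 to 6 reads, mt-Tr (1.39 ± 0.16 in KO-ND and 4.14 ± 0.862 in KO-WD) and mt-Tk (3.31 ± 1.75 in WT-ND and 1.45 ± 0.168 in KO-ND) also separated in 1 comparison each, as did mt-Ty (38.3 ± 15.4 in KO-ND and 19.7 ± 6.18 in KO-WD) on 9 to 38 reads in those libraries, with limma adjusted p-values of 0.927 to 0.97. By diet in KO, 2 of the 20 tRNAs separated upwards, against 9.83% of all genes, and 1 downwards, against 10.9%. Between the genotypes on the ND, 2 separated downwards, against 13.7%. These numbers are no more than the background gives.

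The lists of nuclear genes that serve respiration and the mitochondrial genome had median log2 fold changes of WD against ND between -0.23 and 0.12. Of the nuclear-encoded respiratory chain subunits, 19 were lower and 12 higher in WT, and 21 lower and 10 higher in KO. Of 31 nuclear-encoded respiratory chain and ATP synthase subunits tested, 0 were called in any comparison, and their median log2 fold change was -0.12 in WT and -0.23 in KO, where the median of all genes was 0.01 and -0.02 and that of the 13 mitochondrial protein-coding genes 1.06 and 0.97. In WT 2 of the 31 had p under 0.05 and were higher on the WD, and 5 were lower, against 6.77% and 8.87% of all genes. The smallest p-values were those of Ndufs7 (118 ± 16.5 in WT-ND and 71 ± 17.6 in WT-WD), Ndufv1 (146 ± 3.75 and 100.4 ± 10), which are both matrix subunits of complex I, and Atp5a1 (529 ± 41.8 and 347 ± 56.5), the alpha subunit of the ATP synthase (limma adjusted p = 0.12, 0.127 and 0.199). In KO 0 were higher and 2 lower, against 2.38% and 3.13%.

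Among 12 genes of mtDNA maintenance, which copy the mitochondrial DNA and supply its nucleotides, the median log2 fold change was -0.01 in WT and -0.05 in KO. In WT 2 had p under 0.05 and were higher on the WD, and 1 was lower, against 6.77% and 8.87% of all genes. Polg2, the accessory subunit of the mitochondrial DNA polymerase, averaged 2.82 ± 0.879 scaled RPKM in WT-ND and 5.89 ± 1.56 in WT-WD, and Twnk, the replicative helicase, 12 ± 1.42 and 7.57 ± 1.23 (limma adjusted p = 0.115 and 0.12). Rrm2b, a ribonucleotide reductase subunit, averaged 0.906 ± 0.153 and 1.96 ± 0.539 (adjusted p = 0.176). Among 10 genes of mitochondrial transcription the medians were -0.00 and -0.01, with Tefm, the elongation factor, at 3.94 ± 0.664 and 5.82 ± 1.49 in WT (adjusted p = 0.285). Among 8 regulators of nuclear respiratory genes they were -0.09 and 0.08, and none had p under 0.05 in WD against ND.

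Among 31 genes of mitochondrial RNA processing and decay the medians were -0.08 and -0.08. In WT 3 had p under 0.05 and were higher, and 5 were lower, against 6.77% and 8.87% of all genes. Tbrg4 and Fastk, which belong to the FASTK family of RNA-binding proteins, had the smallest p-values, Tbrg4 at 44.5 ± 5.6 in WT-ND and 23.7 ± 3.44 in WT-WD (limma adjusted p = 0.0696) and Fastk at 66.5 ± 8.51 and 39.6 ± 4.8 (adjusted p = 0.0945). Fastk is known to be needed for the level of mt-Nd6 mRNA. Both were also lower in KO, by 0.58 and 0.62 on the log2 scale (limma adjusted p = 0.871 and 0.819). Of the 31 genes in KO, 1 had p under 0.05 and was higher, and 5 were lower, against 2.38% and 3.13% of all genes. Among 19 aminoacyl-tRNA synthetases the medians were -0.06 and -0.20, with Fars2, which charges the phenylalanine tRNA, at 23.5 ± 3.61 in WT-ND and 12.8 ± 1.32 in WT-WD (adjusted p = 0.071), and Lars2, which charges the leucine tRNAs, at 129.9 ± 34.8 and 263 ± 91.5 (adjusted p = 0.205). Among 12 translation factors they were 0.12 and -0.04, and among the 10 genes of the mitochondrial stress response that passed the filter, of 11 in the table, -0.15 and -0.05. No gene of these lists was called in any comparison at an adjusted p under 0.05.

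Other RNAs and cell markers differed with the diet or varied within groups, and their part in the mitochondrial values was not tested. Of 9 genes of other RNA classes, 1 was higher and 2 were lower at p under 0.05 in WT, against 6.77% and 8.87% of all genes. In KO 2 were higher, against 2.38%. Malat1, a long RNA kept in the nucleus, averaged 25.4 ± 4.28 scaled RPKM in WT-ND and 59.4 ± 18.5 in WT-WD, and 29.1 ± 6.53 and 59.3 ± 8.86 in KO (limma adjusted p = 0.0691 and 0.74). It did not overlap in either genotype, and 4.14% of all genes in WT and 9.83% in KO separated upwards in this way. The 2 lower in WT were Gm26917 (60.7 ± 17.9 in WT-ND and 28.3 ± 6.64 in WT-WD) and Neat1 (272 ± 31.9 and 189.8 ± 41.3), with limma adjusted p-values of 0.103 and 0.273. The 8 enterocyte markers summed to 5107 to 8352 in WT-ND, 2878 to 5947 in KO-ND, 3575 to 16757 in WT-WD and 1151 to 5617 in KO-WD, and 0 of 8 had p under 0.05 between the diets. The 8 smooth muscle markers summed to 1161 to 3591, 2060.3 to 3971, 1090.2 to 4351 and 1455 to 5403 in the same order, with 0 of 8. Of 5 adipocyte markers all were lower on the WD in WT, 2 with p under 0.05 (median log2 fold change -0.90), and of 6 goblet cell markers 5 were lower, 1 of them with p under 0.05 (-0.68). Of 6 B and plasma cell markers 6 were higher, 1 with p under 0.05 (0.58). The medians of the Paneth cell, T cell, macrophage, erythrocyte and enteric neuron and glia markers lay between -0.35 and 0.45 in WT, with at most 1 gene of a list at p under 0.05. Of all genes in WT, 6.77% were higher and 8.87% lower at that p. In KO, 5 of 5 adipocyte and 4 of 6 goblet cell markers were lower on the WD, and 5 of 6 B and plasma cell markers higher. The 5 macrophage markers, of which 4 were higher in WT, were all lower in KO. Between the genotypes, all 8 enterocyte markers were lower in KO on both diets (medians -0.97 on ND and -0.65 on WD) and all 5 Paneth cell markers higher (1.21 and 0.71). All 8 smooth muscle markers were higher in KO as well (0.63 and 0.29), and so were all 4 erythrocyte markers tested (0.47 and 0.68). The other marker lists were mixed on the ND or the WD, or turned around between them. No marker was called.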

How the data were processed

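Total RNA of mouse terminal ileum was enriched for polyadenylated RNA, depleted of nuclear-encoded rRNA and sequenced on the Ion Proton. The authors mapped reads with STAR in Partek Flow to mm10 and quantified Ensembl transcripts. The deposited values are RPKM per transcript. The treatment of multiply mapped reads and of strand was not given in the sources used here. The labels give 4 samples per group.

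From these, RPKM were summed per gene (59258 transcripts, 23299 genes). Of the transcripts, 98.2% matched GENCODE M21, from which lengths, coordinates and sequences were taken. Depth was derived from the constant step of RPKM times length (7003819 to 12384382 reads). For genes with 1 transcript, 86.5% to 87.8% of values came out as whole reads within 0.02.

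Libraries were scaled by a TMM-type factor (30% of ratios and 5% of levels trimmed at each end). Genes with at least 1 RPKM in at least 2 libraries were tested on log2(scaled RPKM + 0.5), a scale that understates changes of low genes, with limma 3.58.1 (R 4.3.3, mean-variance trend, 4 groups in 1 fit) and Benjamini-Hochberg adjustment. Shares and ratios were compared with two-sided exact permutation tests. Python 3.11.15 was used for the rest. The fit was also run on simulated data in which genes varied independently, which cannot show how it treats members that share precursors. P-values measure only the spread between these samples, which may be technical.

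The members, gene lists and tests were chosen with earlier results of these data known. All protein-coding and rRNA members are named. A tRNA is named where its groups did not overlap, its unadjusted p was under 0.05 or it was among the 3 highest, and of each nuclear list up to 3 genes with the smallest p per comparison. mt-Tp, Malat1, Fabp6, Tas1r3 and the tRNAs with 0 reads or a library far from the others were named after their values were seen. The same holds for the ratio of mt-Rnr2 to mt-Rnr1 and for the diet difference in the ratio of the chromosome 1 copy to mt-Nd3. The alternatives were other scalings, pseudocounts, filters, covariates, library sets and thresholds. Those with the chromosome 1 copies added or without WT-WD female 2 and the KO-WD females were chosen after seeing the data.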

Additional observations from a re-analysis of the deposited data

Results flagged for a closer look

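Over 90 sets of 4 WT libraries, 8 held a library far from the other 3 by Dixon's test at the 95% level, where chance gives about 1 in 20. In WT-WD, female 2 was set apart for mt-Ta, the alanine tRNA (83.5 scaled RPKM, next 12.4), for mt-Tn, the asparagine tRNA (48.1, next 7.3), for mt-Ts2, a serine tRNA (107, next 19.3), and for complex I (29.5% of the protein-coding sum, next 32.2%) and complex IV (43.9%, next 39.2%). These 3 tRNAs rested on 54, 32 and 59 reads in that library. In WT-ND, female 1 was low for mt-Atp8 (1114 scaled RPKM, next 2009.8) and mt-Tp (54.8, next 99.3), and male 2 for mt-Nd6 relative to the other protein-coding genes (3.86%, next 4.72%). In its diet difference, 0 members differed between the genotypes at an adjusted p under 0.05 by limma, and 1, mt-Tt, at an unadjusted p under 0.05.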

How the results depend on the processing

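Over 33 settings, the 13 protein-coding genes were higher on the WD in both genotypes under each scaling, copy, covariate and library set compared (log2 fold changes of at least 0.31 in WT and 0.41 in KO). Members called stayed at 0, except with the 16 columns as labelled, where 1, mt-Nd3 in WT, was called (1.46, limma adjusted p = 0.00817). The 16 columns include the KO-ND female columns, weighted means of the males. All p-values and counts from them, here and below, therefore treat copies as replicates. At an adjusted p under 0.05 with no minimum fold, 5 of 30 alternative fits gave 1 to 6 members in WT, among them sex as a covariate (1) and upper quartile scaling (1). In those 5 fits 27 to 3441 of all genes passed. The tRNAs are limited by their few reads, and KO-ND by its 2 libraries, both from males.

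The share of the library differed between the diets by 3.47 percentage points in WT males (exact permutation p = 0.333, the smallest 2 against 2 allow), and in KO by 3.39 with the 16 columns (exact permutation p = 0.0286). That last p counts weighted means of the KO-ND males as replicates. Counted in reads, KO against WT on the ND was 0.0102. Protein-coding genes higher at an unadjusted p under 0.05 numbered 6 in WT with males only, and in KO 13 with the 16 columns, 4 with no filter, 3 on the values as deposited and 0 to 11 leaving out 1 library. The WT count leaving out 1 library was 10 to 13. mt-Rnr2 in WT was at -0.01 in males only.

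Among the log2 ratios, no main value passed its test, and signs turned around small values. For WD against ND in WT, mt-Nd6 was 0.11 in males only and -0.08 to 0.02 leaving out 1 library, complex III -0.04 to 0.06, complex I 0.11 to 0.17 and complex IV -0.13 to -0.06, and without WT-WD female 2 and the KO-WD females complex I was 0.17 and complex IV -0.13. In KO, rRNA was -0.12 in males only and without those libraries (-0.12 to 0.63 leaving out 1), mt-Nd6 0.01 with KO-WD female 2 alone (-0.08 to 0.05), and complex V 0.04 in males only and without those libraries (-0.06 to 0.04). For KO against WT on the ND, mt-Nd6 was 0.05 in males only (-0.11 to 0.04), complex III -0.01 to 0.10, and complex V -0.06 in males only and -0.00 with the 16 columns (-0.03 to 0.04). On the WD, rRNA was 0.04 in males only, 0.21 with the 16 columns and 0.02 with KO-WD female 1 alone (-0.45 to 0.32), complex I 0.01 in males only and without those libraries (-0.07 to 0.04), complex IV 0.01 with the 16 columns (-0.09 to 0.02), and complex V -0.01 to 0.09. The cause was not tested.

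Same-numbered libraries of different groups had correlations of deviations from the group means of -0.15 to 0.57 (median 0.11), over 0.1 in 7 of 14 pairs. Differently numbered libraries had correlations of -0.63 to 0.63 (median -0.05), over 0.1 in 12 of 48 pairs. The main fit did not pair the samples by number, and a fit with the numbers as a block was run beside it. With a replicate block, the protein-coding genes were at 0.83 to 1.46 in WT (smallest adjusted p = 0.0617 by limma) and 0.71 to 1.08 in KO (0.392), and 0 members were called.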
